A study of Mus musculus with 2 samples.

Results

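The lysosome digests proteins, lipids and sugars inside an acidified membrane-bound compartment, and 43 genes that encode its hydrolases, its membrane proteins and its proton pump were examined in single cell RNA sequencing of mouse islets. They were chosen by name from the 31053 genes listed in the deposited tables, and each of the 43 symbols was listed once. No limit on a measured value was used, but earlier results of these data were known. They comprise 9 cathepsins, 12 other hydrolases and their cofactors, 6 proteins of the lysosomal membrane, 15 subunits and accessory proteins of the vacuolar H+-ATPase (V-ATPase), and *Tfeb*.

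The study compared islet cells of *Npc1*-/- mice, labelled Npc1KO, with those of wild type (WT) littermates on a C57BL/6J background, to learn what loss of *Npc1* does in β cells. Both libraries came from female mice aged 2 weeks, 1 library per genotype, each from the pooled islets of 3 mice, with no drug or other treatment named. The knockout is present in every cell of the animal, so a difference seen in one cell class may arise outside it. The islets were dispersed with trypsin and the cells captured with the droplet method of 10x Genomics, which tags every captured RNA with a unique molecular identifier (UMI), and values here are numbers of UMIs rather than reads.

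Lysosomal hydrolases are made in the endoplasmic reticulum, carried to the lysosome and, in the case of the cathepsins, activated there by cleavage at low pH. The V-ATPase pumps protons into the lumen with a membrane sector (V0) that carries the protons and a cytosolic sector (V1) that hydrolyses ATP, and the same pump acidifies the insulin secretory granule of the β cell. TFEB, a transcription factor of the MiT/TFE family, binds an E-box element in the promoters of many lysosomal genes, and NPC1 exports cholesterol from the lysosome.

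The 8 letters TCACGTGA, the core of the element through which TFEB is known to act, are shown first because they are a sequence feature that some of the genes share. RefSeq promoters (build GRCm38.p6, 300 bases, from 250 before to 50 after the RefSeq start) were at hand for 36 of the 43 genes, and the other 7 (*Ctsb*, *Ctsh*, *Asah1*, *Atp6v1b2*, *Atp6v1c1*, *Atp6v1g1* and *Atp6v1h*) had no entry. The 8 letters, which read the same on both strands, occurred in 7 of the 36 promoters and in 304 of 27025 gene symbols with an entry, or 1.12%. The shorter E-box CACGTG, which is contained in the 8 letters, occurred in 13 of the 36 and in 8.09% of all symbols. The 7 stretches that hold the 8 letters are printed 5′ to 3′ on the gene's strand, with the 8 letters in capitals.
Ctsa: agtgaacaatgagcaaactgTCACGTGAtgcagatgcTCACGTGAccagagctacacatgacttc
Ctsd: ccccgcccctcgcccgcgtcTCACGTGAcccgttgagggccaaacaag
Gla: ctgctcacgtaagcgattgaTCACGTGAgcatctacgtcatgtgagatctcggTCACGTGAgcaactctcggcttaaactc
Mcoln1: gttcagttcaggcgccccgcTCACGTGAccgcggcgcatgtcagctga
Atp6v0d1: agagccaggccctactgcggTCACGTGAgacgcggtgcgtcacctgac
Atp6v0e: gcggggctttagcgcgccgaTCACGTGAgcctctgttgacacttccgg
Atp6v1a: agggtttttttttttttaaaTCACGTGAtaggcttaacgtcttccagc

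These stretches lie at chr2:164833740-164833804 on the + strand for *Ctsa*, chr7:142387899-142387946 on the - strand for *Ctsd*, chrX:134601173-134601253 on the - strand for *Gla*, and chr8:3500453-3500500 on the + strand for *Mcoln1*. Those of the pump lie at chr8:105566041-105566088 on the - strand for *Atp6v0d1*, chr17:26676378-26676425 on the + strand for *Atp6v0e* and chr16:44139364-44139411 on the - strand for *Atp6v1a*. *Ctsa* held the letters at -13 and 4 bases from the RefSeq start, *Gla* at -228 and -195, *Ctsd* at -99, and *Atp6v0d1* and *Atp6v0e* at -4 and 2. The GENCODE annotation can place a gene's start elsewhere, as for *Atp6v0e*, which begins there at chr17:26663231. A match is a description of the sequence and not evidence of binding.

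UMIs were summed over the barcodes of each library and class. Levels are given as CPM, the UMIs of a gene per 1000000 UMIs other than those of 8 hormone genes, whose share of a barcode is large and differs between cells. A barcode belonged to the β-like, α-like, δ-like or PP-like class when insulin, glucagon, somatostatin or the PP and PYY hormones led its hormones and made up at least 10% of its UMIs. Other barcodes were endothelial-like, stellate-like, mesenchymal-like or macrophage-like when at least 3 markers of that class, and more than of any other, were detected. The WT library kept 4628 barcodes with a median of 18905 UMIs and the *Npc1*-/- library 4269 with a median of 21381, and 12 barcode sequences of 16215 occurred in both. β-like barcodes numbered 1833 in WT and 1826 in *Npc1*-/-, α-like 1048 and 857, δ-like 189 and 141, endothelial-like 427 and 423, mesenchymal-like 54 and 66, and macrophage-like 46 and 31. The β identity genes *Mafa*, *Ucn3*, *Slc2a2*, *Nkx6-1* and *Pdx1* summed to 2432 and 1962 CPM in β-like barcodes and to 291 and 346 CPM in PP-like ones. In α-like, δ-like, endothelial-like or macrophage-like barcodes they summed to at most 234 CPM. In only 5 WT and 1 *Npc1*-/- δ-like barcodes did somatostatin exceed the next hormone by 4 times, so the δ-like class is mixed. The δ genes *Hhex* and *Rbp4* summed to 11515 and 9165 CPM in it. They summed to 1018 and 1194 CPM in β-like and to 4417 and 4534 CPM in PP-like barcodes. *Npc1* itself had 319 UMIs (13.8 CPM) in WT β-like barcodes against 143 UMIs (5.97 CPM) in *Npc1*-/- ones, and in each of the 8 classes its log2 ratio was below that of the median gene, from -1.83 to -0.41. Where in the gene the disruption lies is not given in the sources used here, so a UMI from the 3′ end need not come from an intact transcript.

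**Figure D1:**
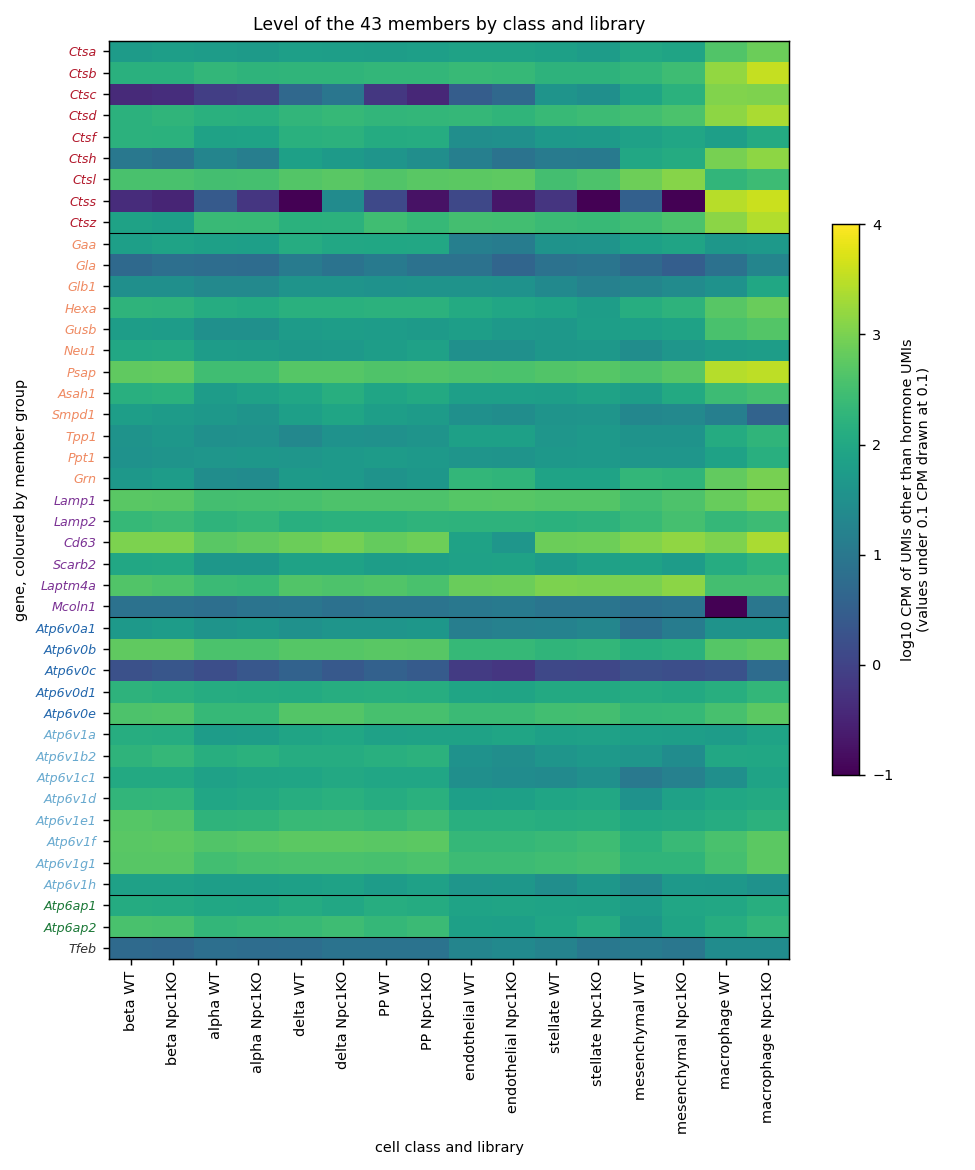
Level of each of the 43 genes (rows, coloured by group) in each cell class and library (columns), as log10 CPM of UMIs other than hormone UMIs. The 2 macrophage columns are the brightest for cathepsins such as *Ctss* (2839 and 3957 CPM), while pump subunits such as *Atp6v1e1* are brightest in the 2 beta columns (472 and 446 CPM).

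The first question was where in the islet the machinery is expressed, for which the 2 libraries served as replicates of a class. Of the 43 genes, 22 had their highest mean level in macrophage-like barcodes and 12 in β-like barcodes. By group, 7 of 9 cathepsins and 9 of 12 other hydrolases were highest in macrophage-like barcodes, and 10 of 15 pump genes were highest in β-like barcodes. The share of all genes highest in each class was not computed, so these counts alone do not set the lysosomal genes apart. In macrophage-like barcodes the placement of *Atp6v0c* rested on 1 WT and 3 *Npc1*-/- UMIs and that of *Gla* on 4 and 10. In the fit over 16 sums of UMIs (edgeR quasi-likelihood test, Benjamini-Hochberg adjustment over 13797 genes), 42 of the 43 genes were tested. The fit scaled each sum by all its UMIs and a size factor, while CPM leaves hormone UMIs out. Its folds and calls therefore need not equal ratios of CPM. Relative to CPM, this scaling shifts the folds of macrophage-like over β-like barcodes upwards. *Atp6v0c*, the proton-carrying c subunit of V0, lay below the count filter, at 5.78 CPM or less in every class and library. The annotation lists 2 processed copies of it, *Atp6v0c-ps1* and *Atp6v0c-ps2*, and their part in its low count was not tested.

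Macrophage-like barcodes stood apart by their cathepsins. 26 of the 42 genes were higher than in β-like barcodes and 5 were lower, beside 21.8% and 28.8% of all genes. 7 of 9 cathepsins and 9 of 12 other hydrolases were higher, and their median log2 folds were 4.64 and 1.85 beside -0.42 over all genes. *Ctss*, the cathepsin that cleaves the invariant chain of MHC class II, reached 2839 CPM (WT) and 3957 CPM (*Npc1*-/-) in macrophage-like barcodes and was found in 46 of 46 and 31 of 31 of them. In β-like barcodes it had 10 and 8 UMIs in all, spread over 8 barcodes of each library. The level was thus 6564 times higher in WT (95% counting interval 3560 to 13716) and 11839 times higher in *Npc1*-/- (5997 to 27459). *Ctsc*, which activates serine proteases of immune cells, had 621 and 561 UMIs in macrophage-like and 9 and 11 UMIs in β-like barcodes. *Ctsh*, an aminopeptidase, was higher by 7.58 (log2 fold of the fit; edgeR adjusted p = 1.28e-15). It had 9.86 and 7.90 CPM in β-like and 925 and 1421 CPM in macrophage-like barcodes, which is 93.7 and 180 times higher. *Ctsb* was higher by 4.64 (edgeR adjusted p = 4.84e-12), *Lamp1* by 1.27 (adjusted p = 1.26e-07), *Lamp2* by 0.52 (adjusted p = 0.00129) and *Tfeb* by 2.94 (adjusted p = 1.34e-06). The call for *Lamp2* holds on the scale of the fit only. In CPM, given below, *Lamp2* was slightly lower than in β-like barcodes in WT and slightly higher in *Npc1*-/-.

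The 3 genes lowest against β-like barcodes were 1 hydrolase and 2 pump genes. *Smpd1*, the acid sphingomyelinase, had 63.1 and 56.5 CPM in β-like and 14.6 and 3.85 CPM in macrophage-like barcodes, a log2 fold of -2.14 (edgeR adjusted p = 0.000133). *Atp6v1e1*, a stalk subunit of V1, was lower by a log2 fold of -1.16 (adjusted p = 6.74e-07), and *Atp6ap2*, an accessory protein also known as the prorenin receptor, by -0.64 (adjusted p = 0.00551). Over the 14 pump genes tested, 5 were higher and 4 lower in macrophage-like than in β-like barcodes, with a median of -0.17. These calls are on the scale of the fit, which shifts such folds upwards relative to CPM. In CPM the 15 pump genes together were lower in macrophage-like barcodes of both libraries. They summed to 2396 (WT) and 3356 CPM (*Npc1*-/-) there, against 3893 and 3875 CPM in β-like barcodes.

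In endothelial-like barcodes the pump genes among the 43 were lower throughout. All 14 that were tested were lower than in β-like barcodes, with log2 folds from -2.34 to -0.29. Their median was -1.10 beside -0.01 over all genes. Of 4 other V-ATPase isoforms tested, none of them among the 43, 2 were higher and 1 lower. Over the 42 genes, 13 were higher and 23 lower, where 35.8% and 35.8% of all genes were. *Atp6v1b2*, the B subunit of V1, was at 180 and 211 CPM in β-like and at 34.8 and 29.6 CPM in endothelial-like barcodes (log2 fold -2.34, edgeR adjusted p = 8.50e-13). *Cd63*, a tetraspanin of late endosomes and lysosomes, fell from 1030 and 1034 CPM to 76.4 and 42.7 CPM (log2 fold -3.86, adjusted p = 3.28e-11). *Gaa*, the acid glucosidase that digests glycogen, had a log2 fold of -2.21 (adjusted p = 5.24e-11). Cathepsins went the other way, with 6 of 9 higher and 1 lower. *Ctsc* was higher by 3.43 (edgeR adjusted p = 4.65e-06), *Ctsz*, a carboxypeptidase, by 2.38 (adjusted p = 1.54e-09) and *Tfeb* by 2.31 (adjusted p = 5.73e-09). The fold of *Ctsc* rested on few UMIs, 12 in WT and 24 in *Npc1*-/-, of which 1 *Npc1*-/- barcode held 7. In β-like barcodes it had 9 and 11 UMIs. *Ctsb* was higher by 0.89 (adjusted p = 0.000903), *Lamp2* was lower at -0.25 (adjusted p = 0.0207), and *Lamp1*, at 0.18, did not pass the test (adjusted p = 0.179). The call for *Lamp2* was lost without the library term (adjusted p = 0.118).

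Most of the 14 pump genes were also lower in α-like and δ-like barcodes. In α-like barcodes 11 of 14 pump genes were lower and 0 higher, and in δ-like barcodes 9 were lower and 0 higher. *Atp6v1e1* was at 472 and 446 CPM in β-like, 179 and 188 CPM in α-like and 237 and 245 CPM in δ-like barcodes, with log2 folds of -1.23 (edgeR adjusted p = 2.58e-09) and -0.999 (adjusted p = 2.59e-07). Over all 42 genes, 3 were higher and 25 lower in α-like barcodes, beside 23.0% and 21.2% of all genes. In δ-like barcodes 6 were higher and 16 lower, beside 15.3% and 15.9%. The 3 that were higher in α-like barcodes were *Ctsz* (1.82, adjusted p = 2.09e-07), *Ctsh* (0.99, adjusted p = 0.00127) and *Ppt1*, a thioesterase that removes palmitate from proteins (0.33, adjusted p = 0.0230). The call for *Ppt1* was lost without the library term (adjusted p = 0.0732) and with DESeq2 (adjusted p = 0.117). *Asah1*, the acid ceramidase, and *Scarb2*, the receptor that carries glucocerebrosidase to the lysosome, were lower by log2 folds of -1.10 (adjusted p = 1.27e-07) and -1.09 (adjusted p = 7.98e-08). *Lamp1* and *Lamp2* were lower too (-0.54 and -0.26, adjusted p = 0.000894 and 0.0210), *Lamp2* not without the library term (adjusted p = 0.146), and *Ctsb* (0.47) and *Tfeb* (0.42) did not pass (adjusted p = 0.0718 and 0.110). Without doublets both passed (edgeR adjusted p = 0.0364 and 0.0491), and with no filter on low counts *Ctsb* did (adjusted p = 2.58e-05) and *Tfeb* did not (adjusted p = 0.169).

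In δ-like barcodes *Neu1*, the lysosomal sialidase, was lowest with a log2 fold of -1.11 (edgeR adjusted p = 1.18e-06), and *Lamp2* had -0.76 (adjusted p = 1.12e-05). *Lamp1* was lower at -0.52 (adjusted p = 0.00332, with DESeq2 0.0533), and *Ctsb* and *Tfeb* did not pass (adjusted p = 0.427 and 0.360). *Ctsh* was higher by 2.72 (edgeR adjusted p = 1.38e-07), with 69.8 and 52.4 CPM against 9.86 and 7.90 CPM in β-like barcodes. Of its 86 *Npc1*-/- UMIs, 18 came from 1 barcode with 7 macrophage markers. *Ctss* and *Ctsc* were called higher as well (4.88 and 3.90, adjusted p = 0.000457 and 3.78e-05), but all 43 UMIs of *Ctss* came from 1 *Npc1*-/- barcode with 7 macrophage markers, and WT had 0 UMIs. Without hormone barcodes that hold stromal or immune markers, an alternative added after the data were seen, *Ctss* turned to -4.00 and *Ctsc* fell to 1.89, and neither passed (adjusted p = 0.389 and 0.292).

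**Figure D2:**
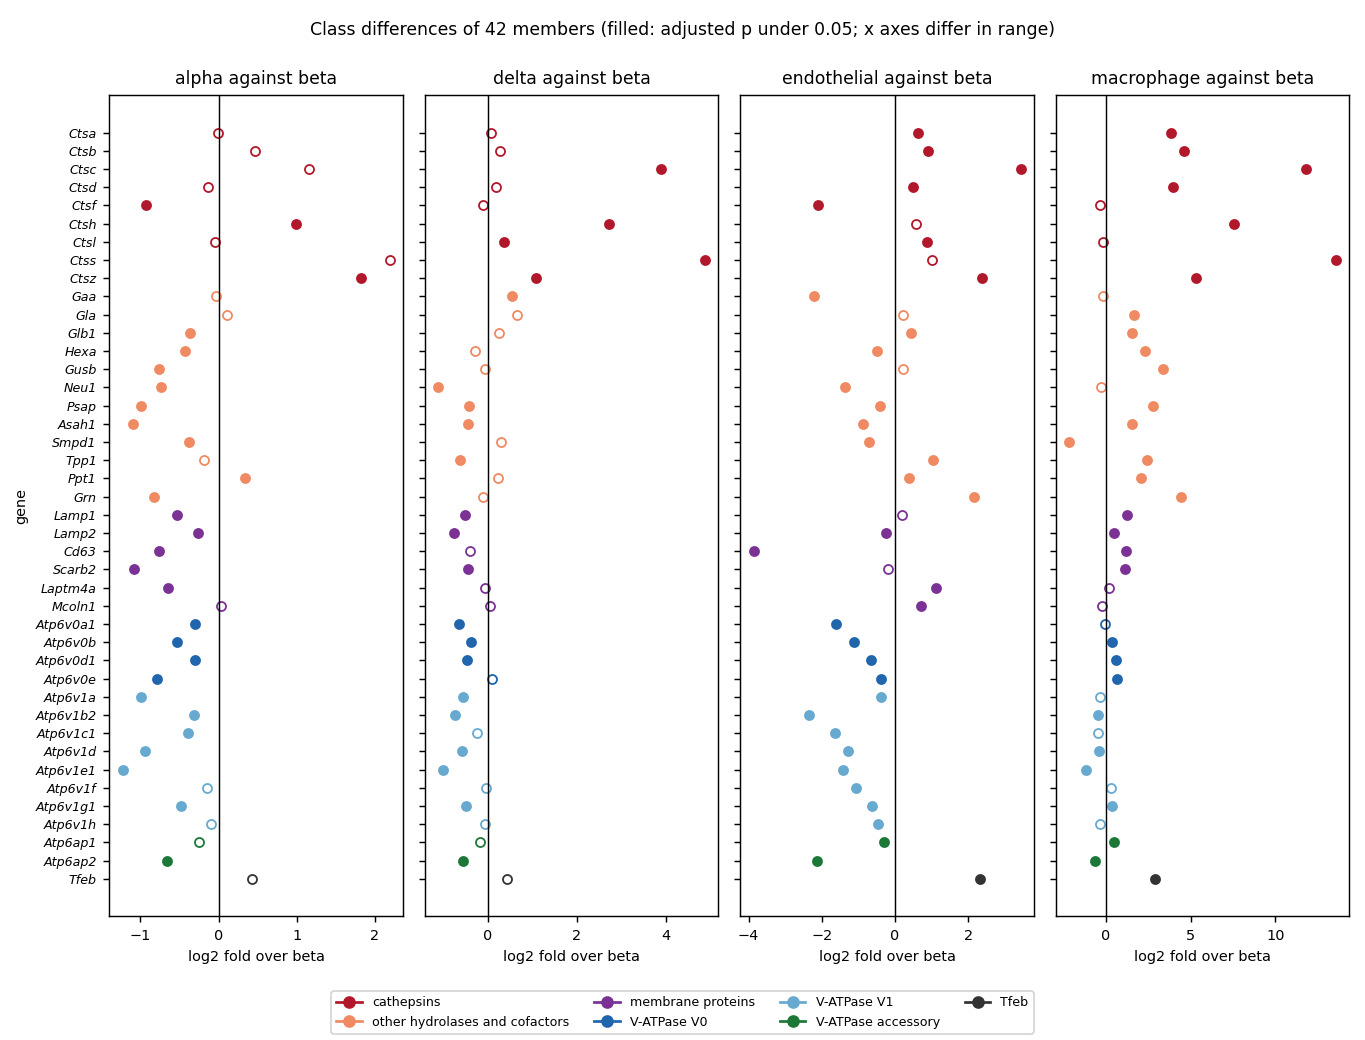
Log2 fold of 42 genes (rows, coloured by group) in alpha, delta, endothelial and macrophage barcodes against beta barcodes, from the edgeR fit over 16 sums; filled points have an adjusted p under 0.05 and the x axes differ in range. Pump genes (blue and green) lie left of 0 for all 14 in the endothelial panel, and cathepsins (red) reach 13.57 in the macrophage panel.

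Other genes of the same kind, none of them among the 43, were read alongside. Of 35 other lysosomal genes, 20 were higher and 8 lower in macrophage-like than in β-like barcodes, beside 21.8% and 28.8% of all genes. In endothelial-like barcodes 13 and 9 were, beside 35.8% and 35.8%. In δ-like barcodes it was 11 and 3, beside 15.3% and 15.9%, and in α-like barcodes 2 and 14, beside 23.0% and 21.2%. In macrophage-like barcodes the widest log2 folds were those of *Laptm5* (12.08) and *Cd68* (10.36), both of leukocyte lysosomes, and of *Tfec*. In endothelial-like barcodes they were those of *Atp6v0e2* (-4.81), *Tcirg1* (3.35) and *Arsb*, a sulfatase (-2.76). In α-like barcodes *Mitf* had -1.92, *Gm2a*, the activator of GM2 ganglioside breakdown, 1.28, and *Cd164*, a sialomucin, -1.15. In δ-like barcodes *Laptm5* had 3.42, *Cd68* 2.63 and *Lgmn*, the asparaginyl endopeptidase, 1.45. All these folds passed the same test. *Laptm5* in δ-like barcodes rested on 3 WT and 11 *Npc1*-/- UMIs and *Cd68* on 1 and 19. The part in them of the 1 *Npc1*-/- δ-like barcode with 7 macrophage markers was not tested. The a subunit of V0 changed isoform between classes. *Atp6v0a1* gave 57.1% and 57.9% of the UMIs of the a subunit in β-like barcodes (exact 95% intervals 55.0 to 59.3% and 55.9 to 59.9%) and 26.3% and 24.4% in macrophage-like ones (16.9 to 37.7% and 15.3 to 35.4%). *Tcirg1*, the isoform known from osteoclasts, gave 2.75% and 3.82% in β-like and 50% and 64.1% in macrophage-like barcodes. *Atp6v0e2* gave 17.8% and 18.5% of the e subunit in β-like barcodes and 1.13% and 0.931% in endothelial-like ones. *Tfec*, a MiT/TFE factor of the myeloid lineage, had 0 and 0.0418 CPM in β-like and 16.4 and 19.3 CPM in macrophage-like barcodes.

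The second question was what the loss of *Npc1* changed. With 1 library per genotype no p-value can be given. Each gene is instead described by the log2 ratio of *Npc1*-/- to WT, set relative to the median gene of the class, with an exact 95% interval for counting error only, which does not cover the spread between mice or preparations. A gene was counted when it reached 5 CPM in either library and 200 UMIs over both, and 1.2-fold served as the limit of size.

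In β-like barcodes the lysosomal genes differed little between the libraries. 40 of the 43 genes were counted, 13 lay above and 27 below the median gene, and their median log2 ratio was -0.05. The median gene itself had a log2 ratio of 0.06 in CPM, so a gene with equal CPM in both libraries lay below it. All 43 together made up 8571 CPM of the WT and 8593 CPM of the *Npc1*-/- sum. At least 1.2-fold higher was 1 gene, where 12.8% of all 10588 genes were, and at least 1.2-fold lower were 2, where 11.4% of all genes were. *Gla*, the alpha-galactosidase, had 120 WT and 164 *Npc1*-/- UMIs (5.19 and 6.85 CPM). Its log2 ratio was 0.34 (-0.01 to 0.69), and over the alternatives it ranged from 0.09 to 0.37. *Ctsh* had 228 and 189 UMIs, or 9.86 and 7.90 CPM (log2 ratio -0.38, -0.67 to -0.10). Over the alternatives its ratio ranged from -0.54 to -0.05, the latter with the stricter cell filter. *Laptm4a*, a small multispanning membrane protein, had 444 and 384 CPM (-0.27, -0.31 to -0.23), which is near the limit, and ranged from -0.29 to -0.23. Its CPM values alone differ by less than 1.2-fold.

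The values of the best known lysosomal markers in β-like barcodes were close between the libraries. *Ctsb* had 149 and 150 CPM (log2 ratio -0.05, -0.12 to 0.01), *Lamp1* 530 and 495 CPM (-0.16, -0.20 to -0.12) and *Lamp2* 227 and 256 CPM (0.11, 0.06 to 0.16). *Tfeb* rested on 125 and 115 UMIs (-0.23, -0.61 to 0.15). Of the pump 2 of 14 counted genes lay above and 12 below the median gene, with 0 past 1.2-fold either way. Their median of -0.05 was about the size of the 0.06 by which the median gene itself was higher in *Npc1*-/-. The summed level of the pump was 3893 CPM for WT and 3875 CPM for *Npc1*-/-. Of the other hydrolases 8 of 12 lay above the median gene, with a median of 0.05. The dissociation response genes, stress genes induced while cells are dispersed, summed to 1907 CPM in WT and 599 CPM in *Npc1*-/- β-like barcodes, and without the barcodes highest in them 13 of 40 genes again lay above the median gene.

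The 35 other lysosomal genes sat higher than the 43 in the same barcodes. 32 of them were counted, 22 lay above the median gene, 7 were at least 1.2-fold higher and 0 lower, and their median was 0.09. Among the 7 were *Igf2r*, the mannose 6-phosphate receptor that sorts hydrolases (0.43), *Idua* (0.42), *Man2b1* (0.41), *Sgsh* (0.41), *Acp2* (0.35) and *Manba* (0.29). *Idua* and *Sgsh* degrade glycosaminoglycans, and *Man2b1* and *Manba* degrade the sugars of glycoproteins. *Atp6v1g2*, another isoform of the G subunit, had 0.37, and *Mitf*, a MiT/TFE factor, had -0.36. The count of 7 of 32 stands beside the 12.8% of all genes, and the list was not tested.

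The paper counts *Ppy* and *Pyy* among the markers of immature β cells. The median of their summed share of UMIs divided β-like WT barcodes into 1073 low and 760 high ones. In *Npc1*-/- the numbers were 756 and 1070. Maturity genes were not compared between these sets. The part of doublets or of RNA from PP-like cells in the split was not tested. Within both libraries 36 of the 43 genes could be compared between high and low barcodes. 1 was at least 1.2-fold higher in high barcodes of both libraries, beside 5.19% of 9138 genes, and 2 were at least 1.2-fold lower, beside 4.97%. *Ctsz* had 62.5 CPM in low and 96.2 CPM in high barcodes of WT (log2 ratio 0.61, 0.47 to 0.75), and 49.5 and 80.6 CPM in *Npc1*-/- (0.69, 0.54 to 0.85). *Cd63* went from 1125 to 893 CPM in WT (-0.34, -0.38 to -0.31) and from 1145 to 955 CPM in *Npc1*-/- (-0.28, -0.31 to -0.24). *Atp6v1a*, the catalytic subunit of V1, had -0.30 in WT and -0.40 in *Npc1*-/-. For *Ctsz* the difference between these sets of β-like barcodes, present within each library, exceeded its difference between the genotypes (-0.23).

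**Figure D3:**
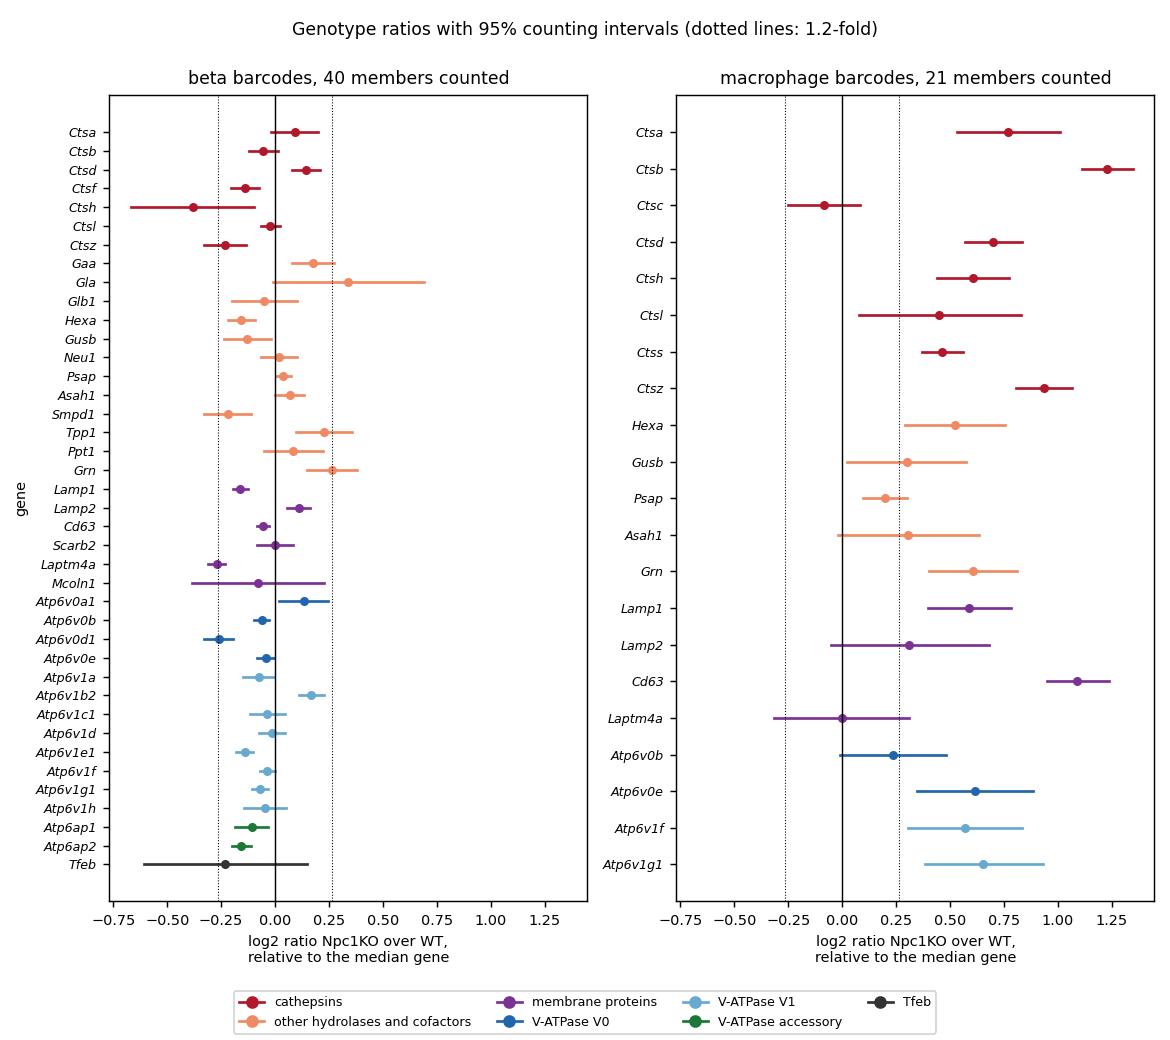
Log2 ratio of Npc1KO to WT, relative to the median gene, for the 40 genes counted in beta barcodes (left) and the 21 counted in macrophage barcodes (right); bars are exact 95% intervals for counting error only and dotted lines mark 1.2-fold. Beta values lie between -0.38 and 0.34, while 17 of the 21 macrophage values lie right of the upper dotted line, up to 1.23 for *Ctsb*.

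Macrophage-like barcodes gave the widest differences between the libraries. 21 of the 43 genes were counted, 19 lay above and 2 below the median gene, and the median log2 ratio was 0.57. 17 were at least 1.2-fold higher in *Npc1*-/-, where 20.2% of all 679 genes were, and 0 were at least 1.2-fold lower, where 21.5% of all genes were. Of all 43 genes, each of which had a UMI in at least 1 library, 36 lay above the median gene. That median was taken over the counted genes only, and the share among all genes with a UMI was not computed. Some of the 43 rested on few UMIs, such as *Mcoln1* with 0 in WT and 5 in *Npc1*-/-. A filter on the WT library alone, added after the data were seen, gave 18 of 21 at least 1.2-fold higher, beside 130 of all 699 genes. All 43 together summed to 19630 CPM for WT (95% counting interval 19261 to 20005) and 30000 CPM for *Npc1*-/- (29531 to 30475).

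The cathepsins led this difference. *Ctsb*, a cysteine protease (chr14:63122462-63145923, + strand, GRCm38), had 860 WT and 1929 *Npc1*-/- UMIs (1568 and 3715 CPM), and its log2 ratio was 1.23 (1.11 to 1.35). Its medians over barcodes were 1200 and 2959 CPM. *Ctsz* (chr2:174427493-174439039, - strand) had 1357 and 2619 CPM (0.93, 0.80 to 1.07), *Ctsa*, which also protects sialidase and galactosidase, 436 and 751 CPM (0.77, 0.53 to 1.01), and *Ctsh* 925 and 1421 CPM (0.61, 0.44 to 0.77). *Ctss* had 2839 and 3957 CPM (0.46, 0.37 to 0.56) and *Ctsl* 195 and 270 CPM (0.45, 0.08 to 0.83). *Ctsc* was the exception at 1132 and 1080 CPM (-0.08, -0.25 to 0.08).

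*Ctsd*, the aspartic protease (chr7:142375911-142388038, - strand), needs care. It had 1413 and 2320 CPM (log2 ratio 0.70, 0.57 to 0.83), but 1 WT barcode held 391 of its 775 UMIs, 50.5% of them. Its medians over barcodes were 395 and 1436 CPM. Without the barcode of each library that was highest in the 43 genes the ratio was 1.51, and among barcodes low in *Cd74* it turned to -0.18.

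Most genes of the other groups that could be counted lay on the same side. *Cd63* (chr10:128900989-128912822, + strand) had 1081 and 2328 CPM (1.09, 0.95 to 1.24), and *Lamp1*, the main glycoprotein of the lysosomal membrane, 686 and 1042 CPM (0.59, 0.40 to 0.78). *Lamp2* had 213 and 268 CPM (0.31, -0.05 to 0.68), and *Laptm4a* was level at 325 and 327 CPM. *Grn*, the precursor of the granulins, had 624 and 959 CPM (0.61, 0.40 to 0.81), and *Hexa*, a subunit of hexosaminidase, 492 and 714 CPM (0.52, 0.29 to 0.75). *Gusb*, the glucuronidase, had 0.30 (0.02 to 0.58) and *Asah1* 0.31 (-0.02 to 0.63), of which *Asah1* turned to -0.04 among barcodes low in *Cd74*. All 4 counted pump genes lay above the median gene. *Atp6v1g1* (0.66), *Atp6v0e* (0.62) and *Atp6v1f* (0.57) were past 1.2-fold. *Tfeb*, with 15 and 14 UMIs, had too few molecules to compare. Among the 35 other lysosomal genes 7 were counted, 7 lay above the median gene and 6 were at least 1.2-fold higher, led by *Lgmn* (1160 and 2270 CPM, 0.95).

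The difference was present across barcodes rather than in a few. The share of the 43 genes in a WT macrophage-like barcode ran from 7377 to 44079 CPM with a median of 18259, and in an *Npc1*-/- one from 22110 to 55750 CPM with a median of 27762. All 31 *Npc1*-/- barcodes lay above the WT median, and 2 of 46 WT barcodes lay above the *Npc1*-/- median. The 2 ranges overlapped, although 35 of 46 WT barcodes lay below the lowest *Npc1*-/- one. Barcodes of 1 library are not replicates of a genotype, so these counts describe 2 libraries.

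The macrophage-like barcodes of the libraries also differed in other respects. The 8 macrophage markers, all detected in both, summed to 17832 (WT) and 25694 CPM (*Npc1*-/-), with *Csf1r* at 897 and 776 CPM and *Ms4a7* at 1096 and 2713 CPM. *Cd74*, the invariant chain of MHC class II, was at 9694 and 3056 CPM in the same order. The median depth was 11238.5 and 16941 UMIs, and the dissociation response genes summed to 3483 and 1250 CPM. The part of these in the result was not tested. Narrower choices of barcodes gave the values below, without making the libraries equal in depth. The window of 8000 to 20000 UMIs had medians of 11951.5 UMIs in WT and 16101 in *Npc1*-/-. The limit on *Cd74* left 15 WT barcodes with a median of 9033 UMIs and 23 *Npc1*-/- barcodes with 16941. Among barcodes of 8000 to 20000 UMIs, 17 of 19 counted genes were at least 1.2-fold higher, beside 113 of all 424 genes. Among those low in *Cd74* it was 14 of 18, beside 102 of 353. With at least 6 of the 8 markers it was 18 of 21, beside 136 of 655. Without the barcode of each library highest in the 43 genes it was 16 of 21, beside 134 of 646. These 4 choices were made after the data were seen. The 10% of barcodes with the strongest dissociation response, taken over both libraries, were all WT, and 38 WT and 31 *Npc1*-/- barcodes were left. Without them it was 17 of 21, beside 133 of 616. *Ctsb* was then at 1.48, *Cd63* at 1.22 and *Ctsz* at 0.98. A difference in which macrophages were captured and a difference within them cannot be told apart.

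**Figure D4:**
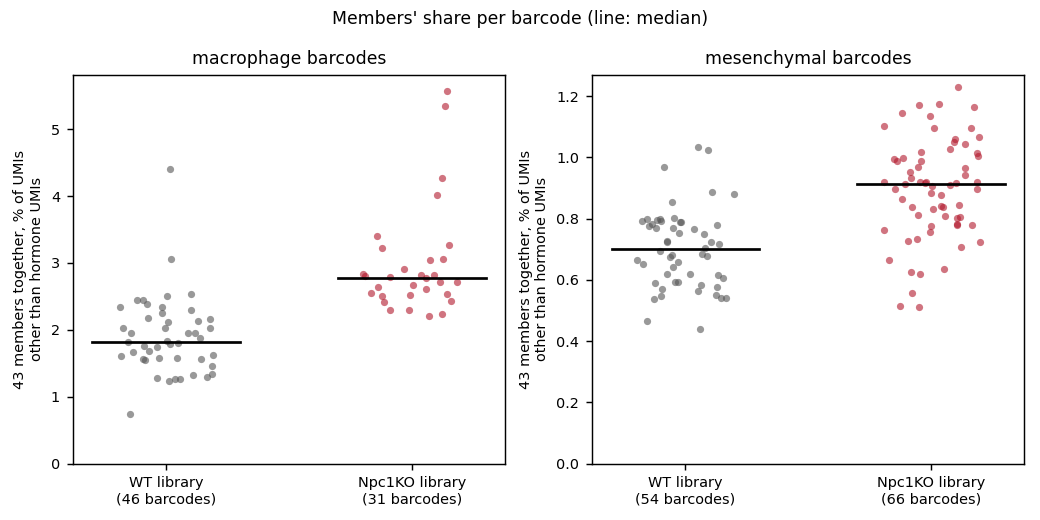
Summed share of the 43 genes in each macrophage barcode (left; 46 WT, 31 Npc1KO) and each mesenchymal barcode (right; 54 WT, 66 Npc1KO), as percent of UMIs other than hormone UMIs; lines are medians. All 31 Npc1KO macrophage points and 59 of the 66 Npc1KO mesenchymal points lie above the WT median line.

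Mesenchymal-like barcodes leaned the same way, a class that was singled out after its values were seen. 13 of the 43 genes were counted, 12 lay above the median gene, 10 were at least 1.2-fold higher (19.3% of all 843 genes were) and 0 at least 1.2-fold lower (16% of all genes were). The median log2 ratio was 0.40. With the filter on the WT library alone, added after the data were seen, 9 of 12 were at least 1.2-fold higher, beside 151 of all 809 genes. *Ctsl*, a cysteine protease, had 775 and 1209 CPM (0.65, 0.48 to 0.82), *Lamp2* 238 and 330 CPM (0.48, 0.16 to 0.80) and *Laptm4a* 994 and 1352 CPM (0.45, 0.30 to 0.61). *Ctsb* had 207 and 282 CPM (0.45, 0.11 to 0.80), *Lamp1* 305 and 405 CPM (0.42, 0.14 to 0.71) and *Cd63* 1140 and 1470 CPM (0.38, 0.23 to 0.52). The mesenchymal markers summed to 22202 and 23794 CPM, and the macrophage markers to 24.4 and 1.59 CPM. The stellate markers were higher in *Npc1*-/- (2136 and 2856 CPM), while the B cell markers (148 and 0 CPM) and the dissociation response genes (5588 and 4175 CPM) were lower. The part of these in the result was not tested. The 43 genes together had medians of 6997 CPM per WT barcode and 9124 CPM per *Npc1*-/- barcode, and 59 of 66 *Npc1*-/- barcodes lay above the WT median.

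The remaining classes had fewer genes past 1.2-fold. In α-like barcodes 37 genes were counted, 17 lay above and 20 below the median gene. 1 was at least 1.2-fold higher (5.52% of all genes were) and 2 lower (5.97% were). *Asah1* had 57.2 and 71.9 CPM (0.31, 0.16 to 0.46), *Ctsh* 19.0 and 13.8 CPM (-0.48, -0.79 to -0.18) and *Smpd1* 46.7 and 39.3 CPM (-0.27, -0.46 to -0.09). *Ctsb* was below the median gene at -0.23 (-0.32 to -0.15), and *Lamp1* and *Lamp2* had 0.01 and 0.15. In δ-like barcodes 31 were counted, 19 above and 12 below. 4 were at least 1.2-fold higher, beside 7.43% of all genes, and 2 lower, beside 8.68%. *Asah1* led with 91.0 and 137 CPM (0.59, 0.30 to 0.89), followed by *Smpd1* (0.35), *Atp6v1c1* (0.29) and *Cd63* (0.28), while *Ctsh* (-0.41) and *Gaa* (-0.33) were lower. Of the 86 *Npc1*-/- UMIs of *Ctsh*, 18 came from 1 barcode with 7 macrophage markers. In PP-like barcodes 24 of 37 counted genes lay above the median gene. 3 were at least 1.2-fold higher, beside 8.50% of all genes, and 3 lower, beside 8.26%. With the leading hormone at 4 times the next, 8 of 36 were higher, beside 447 of all 4866 genes. In stellate-like barcodes 17 of 24 lay above, with 3 at least 1.2-fold higher (9.58% of all genes were) and 2 lower (9.98% were).

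In endothelial-like barcodes 34 genes were counted, 14 above and 20 below, with 0 at least 1.2-fold higher (7.08% of all genes were) and 3 lower (8.23% were). *Cd63* had 314 WT and 209 *Npc1*-/- UMIs (76.4 and 42.7 CPM), and its log2 ratio was -0.84 (-1.10 to -0.58). The β identity genes in the same barcodes summed to 56.0 and 22.5 CPM, and β-like barcodes held *Cd63* at 1030 and 1034 CPM. The part of RNA from β cells in this value was not tested. *Gusb* (-0.33, -0.58 to -0.07) and *Hexa* (-0.29, -0.48 to -0.10) were the other 2. *Ctsb* had -0.04, *Lamp1* 0.05 and *Lamp2* 0.00.

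Some genes kept 1 direction through the endocrine classes. The share of all genes that did so, in these classes or in all 8, was not computed. The counts below therefore do not set the lysosomal genes apart from other genes. Of 31 genes counted in all 4 hormone classes, 2 lay above the median gene in each, *Lamp2* (0.11 to 0.20) and *Asah1* (0.07 to 0.59), and 6 lay below in each. Among the latter *Ctsh* had the widest ratios, from -0.48 to -0.38. It had 228 and 189 UMIs in β-like, 229 and 155 in α-like and 128 and 86 in δ-like barcodes. Of those 86, 18 came from 1 barcode with 7 macrophage markers. In macrophage-like barcodes *Ctsh* went the other way (0.61). The 6 B cell markers were lower in *Npc1*-/- as well, at 24.3 and 3.93 CPM in β-like, 46.8 and 1.16 CPM in α-like, 4.90 and 4.27 CPM in δ-like and 25.3 and 0.715 CPM in PP-like barcodes, and the libraries held 142 and 1 B cell barcodes. The macrophage markers in β-like barcodes summed to 64.4 and 98.6 CPM, of which *C1qa* made up 62.8 and 96.9 CPM. The part of either in the *Ctsh* ratios was not tested. *Laptm4a* ran from -0.27 to -0.11, *Atp6ap1*, an accessory protein of V0, from -0.23 to -0.11, *Ctsb* from -0.23 to -0.04, *Hexa* from -0.16 to -0.03, and *Atp6v0e* from -0.04 to 0.00. In β-like barcodes the *Ctsb* level in CPM was close between the libraries, so its sign there depends on the median gene. Of 12 genes counted in all 8 classes, *Lamp2* alone lay above the median gene in each, with ratios from 0.00 to 0.48.

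**Figure D5:**
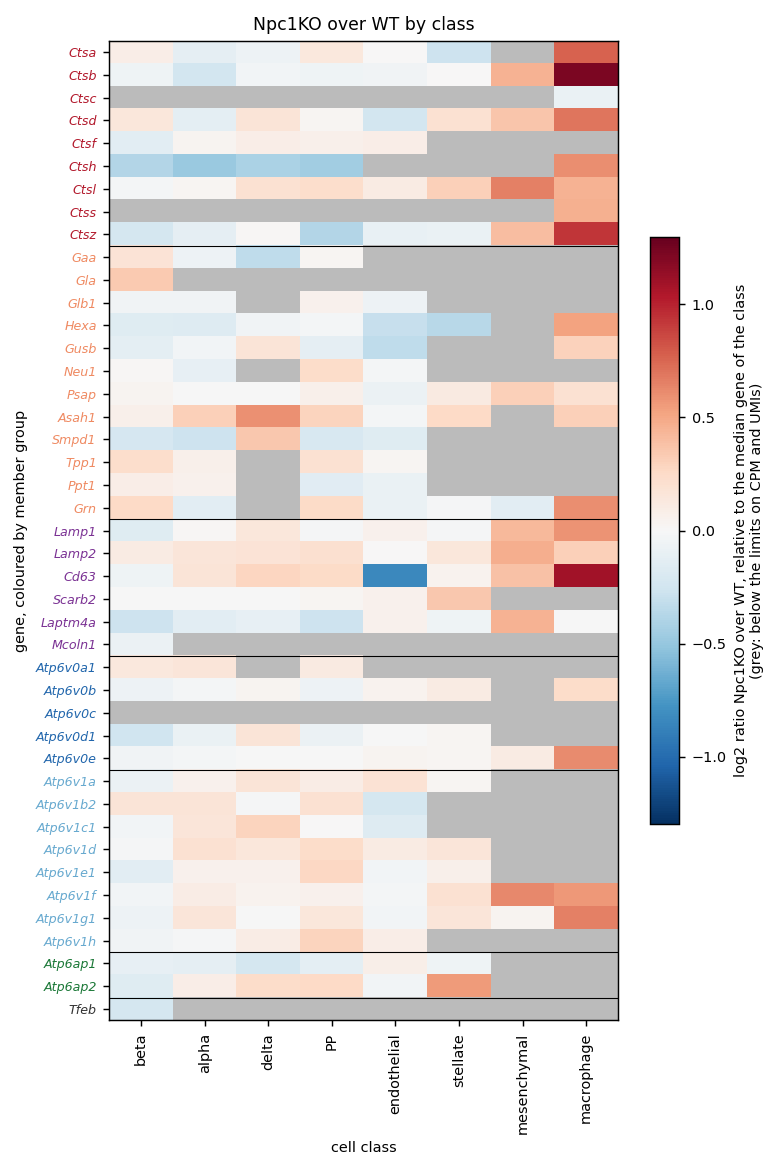
Log2 ratio of Npc1KO to WT, relative to the median gene of the class, for each gene (rows, coloured by group) and class (columns); grey marks genes below the limits on CPM and UMIs. Red dominates the macrophage column (17 of 21 counted genes at least 1.2-fold higher) and the mesenchymal column (10 of 13), and the *Ctsh* row is blue in the 4 hormone classes.

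The promoter element is last set beside these ratios. Of the 17 genes at least 1.2-fold higher in *Npc1*-/- macrophage-like barcodes, 13 had a promoter entry. Of these, 3 (*Ctsa*, *Ctsd* and *Atp6v0e*) held TCACGTGA, beside 7 of all 36. In β-like barcodes the 7 genes ranged from -0.26 for *Atp6v0d1* to 0.34 for *Gla*, with *Ctsd* at 0.14, *Ctsa* at 0.09, *Atp6v0e* at -0.04 and *Atp6v1a* and *Mcoln1*, the lysosomal calcium channel, both at -0.08.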

How the data were processed

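Single cell RNA sequencing counts of 2 libraries, 1 WT and 1 *Npc1*-/-, were analysed. The deposited values are UMI counts of each gene in each barcode called as a cell, which the authors had not normalized. The submitters' processing notes name Cell Ranger 3.1.0, Seurat 4.0.3 and the build mm10. The labels name version 3 of the 10x kit and the paper version 2. Totals were 114324626 UMIs in 8569 barcodes (WT) and 127122035 in 7646 (*Npc1*-/-).

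Barcodes with over 1000 genes, under 50000 UMIs, under 10% mitochondrial and at most 0.1% haemoglobin UMIs were kept. Doublets were not removed in the reported values, and an alternative removed the highest Scrublet scores (0.8% per 1000 barcodes, scanpy 1.11.5). Classes were set by hormones and marker lists, none of which holds one of the 43 genes. The genes, marker lists and gene lists were chosen with earlier results of these data known. Named genes were those past 1.2-fold between the libraries in β-like, α-like, δ-like, endothelial-like or macrophage-like barcodes, the 3 highest and 3 lowest called in each class contrast, and *Npc1*, *Lamp1*, *Lamp2*, *Ctsb* and *Tfeb* in every class. Of the other lists these were the genes past the fold in β-like barcodes and the 3 with the largest fold between classes. A gene that this rule would name is not reported here.

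Class contrasts used edgeR 4.0.16 (TMM, filterByExpr, library as a term, 7 residual degrees of freedom) in R 4.3.3, with DESeq2 1.42.0 as an alternative. The libraries stand as replicates of a class. The library term takes up any difference between the 2 libraries that is common to the classes. The p-values therefore rest on how the difference between these 2 libraries varies from class to class, not on the spread between mice. That variation may be technical, and the libraries also differ in genotype. Genotype ratios were computed in Python with 0.5 counts added, exact Poisson intervals for levels, Clopper-Pearson intervals for shares and conditional binomial intervals for ratios, all at 95% and for counting error only. Positions are those of GENCODE M21 (GRCm38), matched by Ensembl identifier for all 43 genes.

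Both procedures were tested on simulated data. For macrophage-like against β-like sums 20.4% of 98 genes set to 2-fold, 71.4% of 98 set to 4-fold and 0.00765% of 13065 unchanged genes were called. Apart from the set genes, the simulated classes shared their gene means and the libraries did not differ, unlike in the data. These rates therefore hold for that setting only. For genotype ratios, intervals covered the set value for 96.5% of changed genes in β-like (10510 genes) and 94.2% in macrophage-like sums (673 genes). Alternatives covered doublets, cell filters, class rules, scaling, summing, dissociation response, *Ppy* and *Pyy* share, limits on low expression, normalization, tool and left-out libraries.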

Additional observations from a re-analysis of the deposited data

Results flagged for a closer look

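The genes listed here were at least 1.2-fold higher in *Npc1*-/- in one class and at least 1.2-fold lower in another. With 1 library per genotype these differences were not tested. The difference in log2 ratio was 1.93 for *Cd63* (1.09 in macrophage-like, -0.84 in endothelial-like barcodes). It was 1.31 for *Ctsz* (0.93 in macrophage-like, -0.38 in PP-like), 1.09 for *Ctsh* (0.61 in macrophage-like, -0.48 in α-like) and 1.04 for *Ctsa* (0.77 in macrophage-like, -0.27 in stellate-like). *Hexa* had 0.88 (0.52 in macrophage-like, -0.36 in stellate-like), *Laptm4a* 0.73 (0.45 in mesenchymal-like, -0.27 in PP-like), and *Gusb* 0.62 (0.30 in macrophage-like, -0.33 in endothelial-like). *Smpd1* also had 0.62, with 0.35 in δ-like and -0.27 in α-like barcodes.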

How the results depend on the processing

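No paired analysis was possible because each genotype has 1 library. Of the recomputed counts 285 stayed within 1.5 times of the reported one and 35 did not. Some of the 285 could not have moved. The hormone rules and the removal of hormone barcodes with stromal or immune markers leave the endothelial-like, mesenchymal-like and macrophage-like barcodes unchanged. Scaling by all UMIs shifts every genotype ratio of a class alike, so only the set of genes counted could change. In β-like barcodes the count at least 1.2-fold higher (reported 1) was 2 among barcodes high in *Ppy* and *Pyy*, by the mean over barcodes, without the strongest dissociation response, and, both added after the data were seen, without hormone barcodes with stromal or immune markers and with the filter on WT alone. It was 0 among low ones, with no upper UMI limit and with the stricter cell filter. The count lower (reported 2) was 1 without doublets, with the stricter filter and without those marker-bearing barcodes, and 0 with all UMIs or at least 20 CPM. In α-like barcodes the count higher became 0 with a hormone at 4 times the next, at 20% or the stricter filter, and the count lower 1 without doublets, with either hormone rule or at 20 CPM. In δ-like barcodes the 4 times rule counted 0 genes, so 0 lay above, higher or lower, and the 20% rule gave 8 above and 0 lower of 11. Without marker-bearing barcodes 1 was lower. The stricter filter left 12 genes in macrophage-like barcodes, 12 above and 11 higher, beside 81 of all 229 genes higher. In macrophage-like barcodes low in *Cd74*, *Asah1* (-0.039) and *Ctsd* (-0.18) reversed. Against β-like barcodes, α-like had 6 higher genes with no filter on low counts and 5 without doublets. δ-like barcodes under the 4 times rule (5 and 1 barcodes) had 5 log2 folds above 0, 0 higher and 2 lower, with *Ctsc* at -4.01, *Ctss* at -3.91, *Ctsb* at -0.030 and *Tfeb* at -7.70. *Ctss* also reversed to -4.00 without marker-bearing barcodes, and it ran from -2.64 to 5.92 with either library left out. Macrophage-like barcodes had 3 lower genes with RLE size factors and with DESeq2. Apart from the smaller number of barcodes or genes that a setting leaves, the cause was not tested. Few macrophage-like barcodes and the lack of replicate libraries limit the genotype ratios.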
